A study of Mus musculus with 12 samples.

Results

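The subunits of oxidative phosphorylation were examined in MC38 tumors of mice treated with PB-020, an inhibitor of the IGF-1 receptor, with an anti-PD-1 antibody, or with both. Members were the genes whose symbols begin with Nduf, Uqcr, Cox4 to Cox8 or Atp5, together with Sdha to Sdhd, without the assembly factors named Ndufaf or Sdhaf and without Atp5s. This gave 85 of the 18211 genes in the table. By symbol prefix alone, 41 were placed in complex I, 4 in complex II, 8 in complex III, 16 in complex IV and 16 in complex V. Of the 85 members, 81 passed the filter on low counts and were tested. The other 4 were Ndufa11b, Ndufb4b, Cox6b2 and Cox8b, of which all but Cox8b stayed between 0 and 1.09 FPKM in all tumors. The subunits encoded by mitochondrial DNA were not analysed here, so the values describe the nuclear share of the complexes.

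Oxidative phosphorylation makes ATP in the inner mitochondrial membrane. Complexes I and II feed electrons from NADH and succinate to ubiquinone, complex III passes them to cytochrome c, and complex IV passes them to oxygen. Complexes I, III and IV pump protons, and complex V uses the returning protons to form ATP. Most subunits are encoded in the nucleus, and several of complex IV exist in a ubiquitous form and a form used in heart and skeletal muscle.

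MC38 is a colorectal adenocarcinoma line of the mouse, and its cells had been placed under the skin of female C57BL/6 mice bought at 5 weeks of age. Treatment began 7 days after injection, in 4 groups with 3 sequenced tumors each. CK mice received vehicle, PB-020 mice received 50 mg/kg of the compound by gavage each day, anti-PD-1 mice received the antibody on days 9, 12, 15 and 18, and PB-020/anti-PD-1 mice received both. All tumors came from this line in this strain, and host and tumor transcripts map to the same genome. The values are therefore from whole tumors, in which fewer cells of a type and less RNA per cell cannot be told apart.

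Expected counts summed to between 16545394 and 17217035 per tumor, and members took between 0.666% and 0.802% of them. Of 12 colon epithelium markers, 10 were under 1 FPKM in all 12 tumors, Epcam and Cdx2 among them, while Cdh1 and Lgals4 were above 1 FPKM in every tumor. Some tumors stood apart. In anti-PD-1 tumor 1 the 25 skeletal muscle markers summed to 970.8 FPKM, against 96.4 to 179.5 in the other 11, and 39 of the 81 tested members had their lowest value there. Its T cell markers (91.0 FPKM) and 10 macrophage markers (1394 FPKM) were also the highest of the 12 tumors. In CK tumor 3 the 10 adipocyte markers summed to 299.4 FPKM, against 32.8 to 68.8 in the other 11, with Cfd at 85.5 and Adipoq at 11.6. In PB-020/anti-PD-1 tumor 2, 38 of the 81 had their highest value. The 14 T cell markers in the table summed to 16.3 to 22.0 FPKM in CK, 36.7 to 91.0 in anti-PD-1 and 44.6 to 70.6 in the combination. The 7 erythroid markers summed to 679.2 to 1556 FPKM in CK, 100.6 to 379.6 in anti-PD-1 and 126.6 to 183.8 in the combination. Their part in the subunit values was not tested.

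Members were abundant, with a median level of 96.1 FPKM (fragments per kilobase of transcript, scaled by the authors to library size, which allows levels of different genes to be compared). Of the 81 tested members, 75 had a mean above 20 FPKM over the 12 tumors. By complex, the median level was 65.9 FPKM in complex I, 73.5 in complex II, 94.5 in complex III, 145.5 in complex IV and 156.1 in complex V. Atp5b, the catalytic beta subunit of ATP synthase, was highest with 552.4 FPKM, and Cox8a, a small subunit of complex IV, was highest in its complex with 461.1 FPKM. The lowest tested member was Cox4i2 with 1.06 FPKM. Members also varied little between tumors, since the median coefficient of variation over all 12 was 9.43%, and for complex II it was 5.71%.

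**Figure D1:**
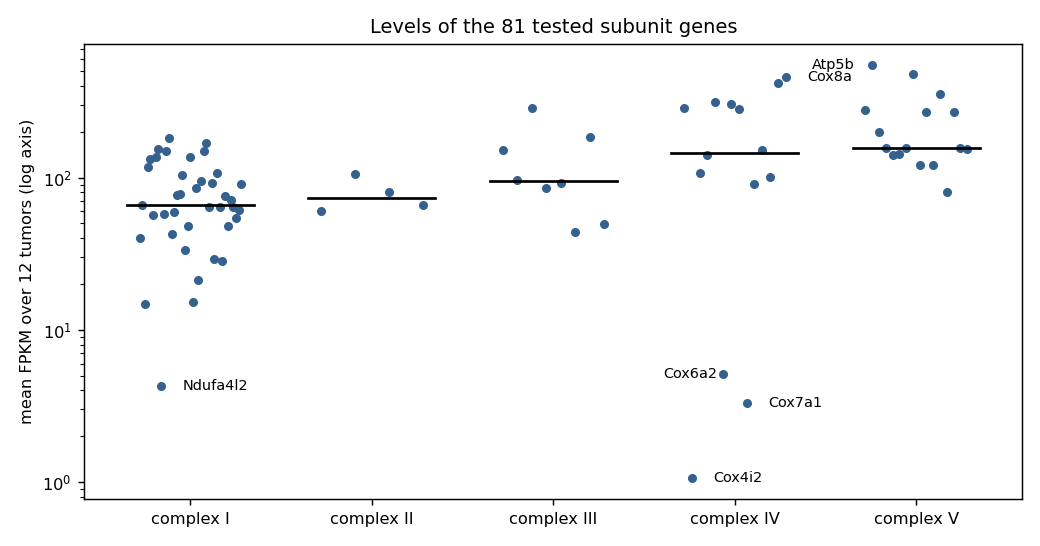
Mean FPKM over the 12 tumors (log axis) of each of the 81 tested subunit genes, 1 point per gene, arranged by complex, with the median as a line. Complex V has the highest median at 156.1 FPKM, and the tissue isoforms Cox4i2, Cox7a1 and Cox6a2 and the paralog Ndufa4l2 lie far below the other genes.

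The isoform genes showed which forms the tumors expressed. Cox4i1, the ubiquitous form of subunit 4, ranged from 253.1 to 321.2 FPKM, whereas Cox4i2, an oxygen-responsive form best known from lung, supplied 0.195% to 0.73% of the pair. Ndufa4l2, a paralog of Ndufa4 known as a hypoxia-induced gene, supplied 1.92% to 4.85% of its pair. Among the 3 genes for the c ring of ATP synthase, Atp5g2 supplied 60.7% to 67.2%, Atp5g1 17.2% to 22.9% and Atp5g3 14.1% to 17.6%. The order of these c ring genes was the same in every tumor.

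The muscle forms were low in nearly all tumors. Cox6a2, the muscle form of subunit 6a, was 3.18, 1.85 and 3.98 FPKM in CK, 6.87, 4.54 and 6.29 in PB-020, 17.87, 3.22 and 3.83 in anti-PD-1 and 2.01, 4.58 and 3.36 in PB-020/anti-PD-1. Its highest value was in anti-PD-1 tumor 1, and the other anti-PD-1 tumors lay within the range of CK. Cox8b, the muscle form of subunit 8, was 8.13 FPKM in that same tumor and 0.27 to 1.66 FPKM in the other 11. Cox7a1, the muscle form of subunit 7a, was 1.58, 2.43 and 1.91 FPKM in CK and 3.28, 2.74 and 3.57 in PB-020. It was 4.92, 4.80 and 3.79 FPKM in anti-PD-1 and 3.67, 2.17 and 4.89 in PB-020/anti-PD-1. All PB-020 and all anti-PD-1 tumors lay above all CK tumors, although only anti-PD-1 tumor 1 had high muscle markers. Cox7a1 was near the floor, with 6 to 19 expected counts per tumor. Its log2 change in anti-PD-1 was 1.22 ± 0.37 (SE), with an adjusted p of 0.0582 in edgeR's quasi-likelihood test, which missed the threshold. The part of muscle tissue in these values was not tested.

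**Figure D2:**
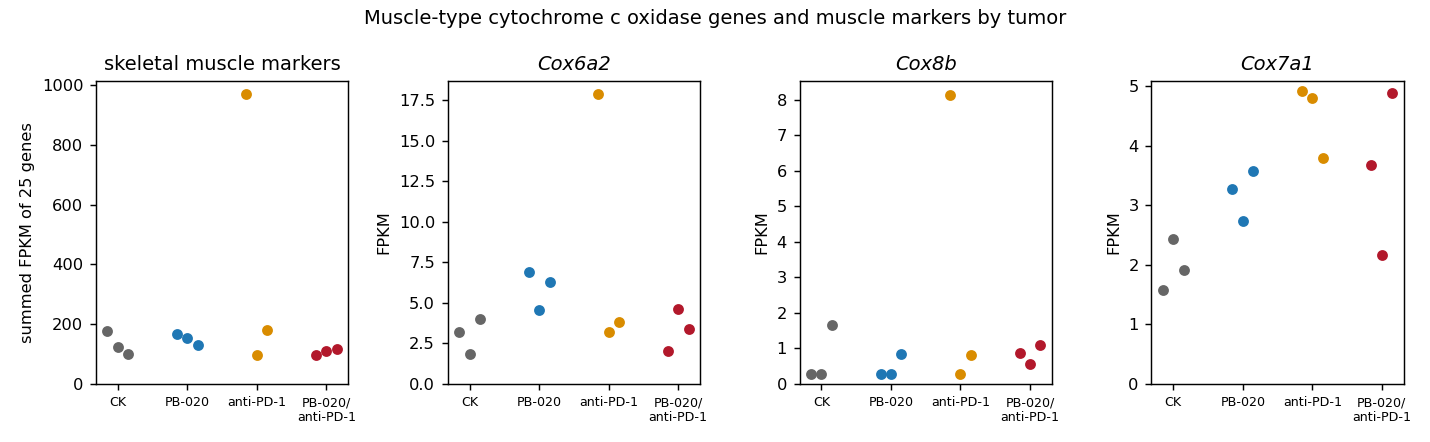
Summed FPKM of 25 skeletal muscle markers and FPKM of Cox6a2, Cox8b and Cox7a1 in each of the 12 tumors, 1 point per tumor, by group. Anti-PD-1 tumor 1 holds the highest value in every panel, with 970.8 FPKM for the markers and 17.87 FPKM for Cox6a2.

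The combination was compared with CK to ask how the subunits differed when both agents were given. Of the 81 members, 14 changed at an adjusted p under 0.05, with 12 raised and 2 lowered. Among all 13563 genes tested, 17.9% changed, 8.35% raised and 9.60% lowered. The members called were thus near the background in number (17.3%), with 14.8% raised and 2.47% lowered. Called members belonged to complex IV (5 raised), complex I (4 raised, 2 lowered), complex III (2 raised) and complex V (1 raised), and none to complex II. The median log2 change of members was 0.081 against -0.0026 for all genes. In FPKM, 17 members (21.0%) had all 3 combination tumors above all 3 CK tumors, against 17.9% of all genes, and 9 (11.1%) had all 3 below, against 22.4%. The count of genes lying wholly above happens to equal that of genes called, 2434 each, but only 1099 genes were in both.

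Complex IV held the member with the smallest p. Cox7b, a small nuclear subunit of cytochrome c oxidase (chrX:106015700-106022450), was 84.7, 71.5 and 76.4 FPKM in CK, 90.0, 94.1 and 100.3 in PB-020, 85.4, 101.5 and 113.7 in anti-PD-1 and 122.6, 154.9 and 114.3 in the combination. All combination tumors lay above all other tumors. The log2 change against CK was 0.77 ± 0.13 (SE), a fold of 1.71, with an adjusted p of 0.00388. Cox6c, another small subunit, was 239.7, 220.1 and 253.9 FPKM in CK and 335.5, 398.3 and 313.3 in the combination. The groups did not overlap, and it rose by 0.57 ± 0.13 on the log2 scale (adjusted p 0.0111). Cox7a2, the ubiquitous form of subunit 7a, was 84.4, 79.9 and 81.5 FPKM in CK and 103.1, 143.7 and 97.2 in the combination, a log2 change of 0.50 ± 0.16 (adjusted p 0.0446). Tumor 2 of the combination held the highest value of each of these genes. Cox7c rose by 0.46 ± 0.14 (adjusted p 0.0488), and Cox5a, a subunit that joins early in assembly, rose by 0.23 ± 0.075 (adjusted p 0.0454). Cox7c was named after its values were seen, as was Ndufb11 of complex I.

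Complex III, which carries electrons from ubiquinol to cytochrome c, was higher in the combination for 8 of 8 members, with a median log2 change of 0.23, and 2 of them passed the test. Uqcrb, a small subunit near the ubiquinone site, was 263.1, 227.9 and 261.5 FPKM in CK and 325.0, 370.3 and 314.3 in the combination. The groups did not overlap, and the log2 change was 0.44 ± 0.099 (adjusted p 0.0108). Uqcrfs1, the Rieske iron-sulfur protein, was 43.4, 41.1 and 37.2 FPKM in CK and 48.2, 48.6 and 44.8 in the combination, a log2 change of 0.23 ± 0.075 (adjusted p 0.0457). The core protein genes were not called. Uqcrc2 differed by 0.25 ± 0.085 (adjusted p 0.0547), and Uqcrc1 was 81.2 ± 4.73 FPKM in CK and 89.9 ± 9.28 in the combination (SD, n = 3).

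Complex I changed in both directions. Ndufa10, an accessory subunit of the membrane arm (chr1:92439486-92473825), was 76.5, 73.0 and 72.3 FPKM in CK, 69.1, 65.6 and 69.5 in PB-020, 63.6, 65.6 and 61.2 in anti-PD-1 and 58.1, 54.2 and 62.1 in the combination. All 3 tumors of each treated group lay below all CK tumors. Against CK the combination fell by 0.33 ± 0.064 on the log2 scale (adjusted p 0.00561). Ndufv1, which binds FMN and takes the electrons from NADH (chr19:4007499-4012755), was 63.0, 63.0 and 55.1 FPKM in CK and 47.2, 44.3 and 50.3 in the combination, and fell by 0.33 ± 0.084 (adjusted p 0.0170). Its partner in the NADH-binding module, Ndufv2, went the other way, with 62.6, 51.1 and 53.6 FPKM in CK and 68.0, 80.5 and 65.1 in the combination, a log2 change of 0.37 ± 0.11 (adjusted p 0.0356). Ndufs4, an accessory subunit needed for a stable complex, was 24.9, 22.6 and 27.5 FPKM in CK and 29.6, 36.5 and 30.2 in the combination (log2 change 0.38 ± 0.10, adjusted p 0.0252). Ndufc2 rose by 0.35 ± 0.11 (adjusted p 0.0452) and Ndufb11 by 0.54 ± 0.17 (adjusted p 0.0497). The groups of Ndufb11 overlapped, since CK tumor 1 at 104.4 FPKM exceeded combination tumor 1 at 104.3. Ndufb4 has near-identical relatives in Ndufb4b and Ndufb4c, so reads may be divided between them and their values are uncertain.

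In complex V 1 member was called and in complex II none. At an unadjusted p under 0.05 were 31.2% of complex V and 20.5% of complex I, against 33.9% of all genes. The median log2 changes of complexes V and I were 0.090 and 0.059. Atp5h, subunit d of the ATP synthase stalk (chr11:115415691-115419919), was 241.2, 238.4 and 270.1 FPKM in CK and 308.3, 314.6 and 283.3 in the combination, a log2 change of 0.28 ± 0.081 (adjusted p 0.0285). Of the 16 members of complex V, 14 were higher than in CK. The catalytic Atp5b was 538.4 ± 11.6 FPKM in CK and 556.6 ± 29.8 in the combination (SD, n = 3). In complex II, which also works in the TCA cycle, 1 of 4 members was higher. Sdhc, its membrane anchor, had the smallest p, with 85.0, 87.0 and 83.1 FPKM in CK and 72.3, 72.6 and 78.9 in the combination (log2 change -0.17 ± 0.064, adjusted p 0.0804). These groups did not overlap, but the difference missed the threshold.

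**Figure D3:**
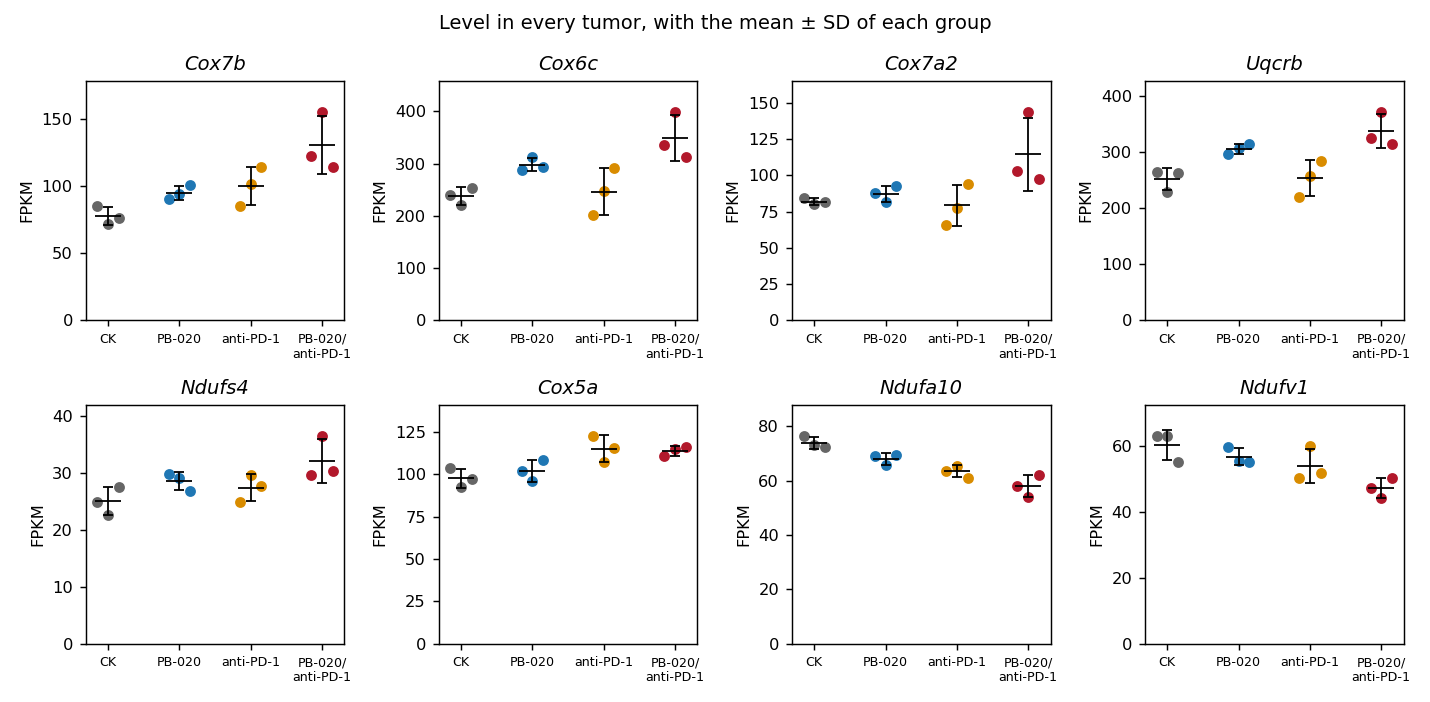
FPKM of 8 subunit genes in each tumor, 1 point per tumor, with the mean ± SD of each group of 3 tumors; every axis starts at 0. Cox7b, Cox6c, Cox7a2 and Uqcrb are highest in the combination, reaching 154.9 FPKM for Cox7b, while Ndufa10 and Ndufv1 are lowest there.

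The number of members called changed when 1 tumor was left out. Such a fit has less power for every gene. No counts of all genes are set beside these fits here, so the numbers do not show whether a lower count is particular to members. Without combination tumor 2, 3 members were called. Likewise, without CK tumor 2, 2 were called, and without CK tumor 3, the tumor with high adipocyte markers, 7 were called. Cox7b and Ndufa10 passed the adjusted p threshold in all 8 other settings judged by it and in all 12 fits that left out 1 tumor. Uqcrb, Cox6c, Ndufs4 and Ndufv1 passed it in the same 8 settings but in 10, 11, 9 and 8 of the 12 fits. Ndufb11 passed in 2 of the 12 fits, Cox7a2, Uqcrfs1, Cox7c and Ndufc2 in 3 to 4, Cox5a in 5, Ndufv2 in 7 and Atp5h in 8. A further rule asked for a fold over 1.5 with an unadjusted p under 0.05. Of the called members Cox7b alone met it, and Ndufa10, with a fold of 0.795, did not. The other members that met it were Cox7a1 and Ndufb4c, neither of them called.

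Members were short genes, and the median of short genes of any function was higher in the combination than in CK, although the tumors of these groups overlapped. The length implied by the expected counts and the FPKM values had a median of 521.8 bases over tested members and 2711 over all genes tested. Among the 264 genes of any function under 500 bases, of which 34 were members, the median log2 change in the combination was 0.136, and among the 34 members it was 0.177. Among the 963 genes of 500 to 1000 bases it was 0.069, and among the 28 members of that length it was 0.020. From 1000 to 2000 bases the 15 members stood above the 3266 genes of their length, with 0.099 against 0.024. The 4 members of 2000 to 4000 bases had -0.013, against -0.0098 for all 5458 genes, and genes over 4000 bases, with no member among them, had -0.037. Members thus lay above genes of equal length in some classes and below in others, and this was not tested. Across the 81 members, length and log2 change had a Spearman rho of -0.26, which describes genes measured in the same tumors. When a trend of each library on length was removed, an alternative chosen after seeing the data, the members' median log2 change fell from 0.081 to -0.0051. The calls became 10 raised and 6 lowered, and 11 of the 14 remained, with no count of all genes set beside them here. Cox7b stayed at 0.69 ± 0.094 (adjusted p 0.0015) and Ndufa10 at -0.38 ± 0.072 (adjusted p 0.0048). What produced the trend was not tested.

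The medians were also read tumor by tumor. The median log2 difference of members from the CK mean was 0.084, -0.089 and -0.0061 in CK, 0.092, 0.044 and 0.11 in PB-020, -0.15, 0.013 and 0.090 in anti-PD-1 and 0.020, 0.21 and 0.060 in the combination. Genes under 500 bases stood at 0.074, -0.090 and 0.020 in CK and 0.051, 0.33 and 0.069 in the combination. Combination tumors 1 and 3 thus lay below CK tumor 1. These short genes stood at -0.20 in anti-PD-1 tumor 1. Cytosolic ribosomal protein genes, which serve the cytoplasmic ribosome, stood at -0.36 and 0.31 in these tumors, and mitochondrial ribosomal protein genes at -0.14 and 0.12. The tumors at the extremes were thus the same for all of these groups.

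**Figure D4:**
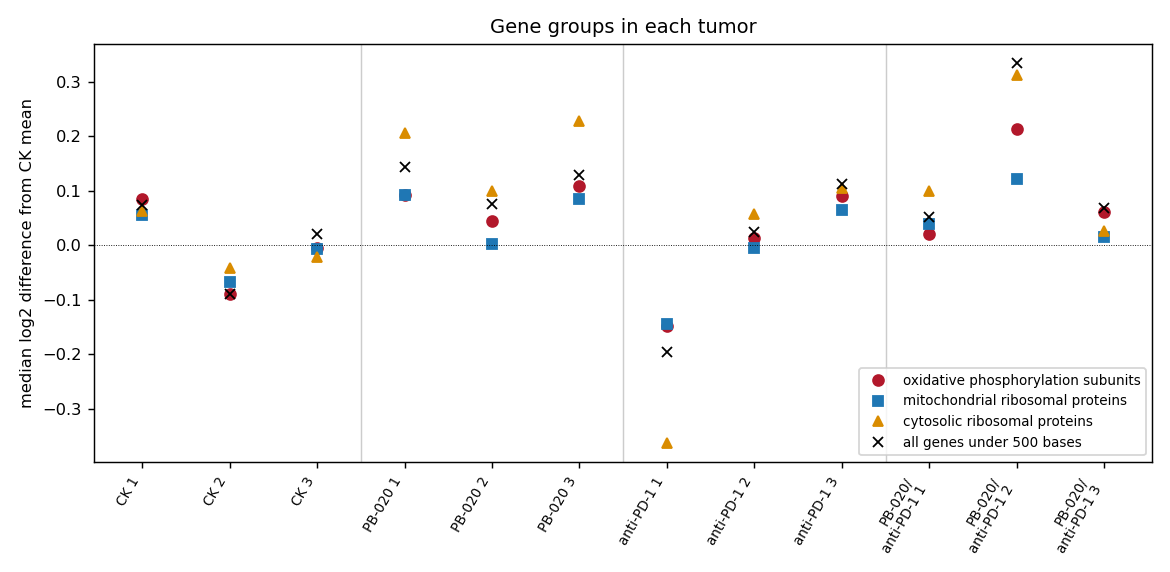
Median log2 difference from the CK mean in each of the 12 tumors for the subunits, for mitochondrial and cytosolic ribosomal protein genes and for all 264 genes under 500 bases. All 4 gene groups are lowest in anti-PD-1 tumor 1 and highest in combination tumor 2, where the subunits stand at 0.21.

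To show the start regions of members that changed, the bases just before the RefSeq start of 4 of them are given, from GRCm38.p6, 5′ to 3′ on the strand of the gene. Cox7b and Ndufa10 were chosen for their stable calls, Ndufv1 as the other lowered member and Atp5h as the called member of complex V. Capitals mark matches to 6 motifs searched on both strands, none of which contains another. These were GCGCANGCG for NRF1, CCGGAAG for ETS factors, AAGATGGC for YY1, AAGGTCA for ERR receptors, CACGTG for the E-box and CCAATC for the CCAAT box.
Cox7b (chrX:106015450-106015699, plus strand): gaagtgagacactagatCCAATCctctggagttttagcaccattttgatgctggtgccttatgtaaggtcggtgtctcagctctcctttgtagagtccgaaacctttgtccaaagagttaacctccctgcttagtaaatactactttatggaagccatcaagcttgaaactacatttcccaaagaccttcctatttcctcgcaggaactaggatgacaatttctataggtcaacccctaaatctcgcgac
Ndufa10 (chr1:92473826-92474008, minus strand): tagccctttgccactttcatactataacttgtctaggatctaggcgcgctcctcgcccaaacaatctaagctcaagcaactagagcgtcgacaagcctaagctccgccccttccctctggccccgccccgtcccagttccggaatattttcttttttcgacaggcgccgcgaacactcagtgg
Ndufv1 (chr19:4012756-4013005, minus strand): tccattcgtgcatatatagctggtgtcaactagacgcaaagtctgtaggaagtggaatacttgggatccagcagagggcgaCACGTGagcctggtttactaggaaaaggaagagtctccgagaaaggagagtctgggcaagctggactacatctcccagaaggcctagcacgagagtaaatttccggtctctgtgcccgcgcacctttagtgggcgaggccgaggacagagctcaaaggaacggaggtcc
Atp5h (chr11:115419920-115420169, minus strand): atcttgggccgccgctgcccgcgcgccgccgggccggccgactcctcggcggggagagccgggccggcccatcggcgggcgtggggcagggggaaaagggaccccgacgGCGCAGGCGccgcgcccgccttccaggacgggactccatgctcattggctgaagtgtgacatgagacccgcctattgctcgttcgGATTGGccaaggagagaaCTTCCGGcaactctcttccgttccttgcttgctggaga

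Atp5h held NRF1, ETS and CCAAT letters in this stretch, Cox7b held the CCAAT letters and Ndufv1 an E-box, and Ndufa10 held none of the 6. In the whole promoter windows, 250 bases before to 50 after the start, 68 of the 85 members had an entry. The NRF1 letters were found in 29.4% of these members, 14.3% of the 10732 tested genes with an entry and 7.03% of all 27025 genes with an entry. The YY1 letters were in 14.7%, 5.01% and 3.19%, and the ERR letters in 11.8%, 3.76% and 5.38%. The ETS letters were in 23.5%, 19.2% and 9.93%, the CCAAT letters in 19.1%, 23.4% and 18.2% and the E-box in 8.82%, 11.2% and 8.09%. A match is a description of the letters only.

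The anti-PD-1 antibody alone was compared with CK. Cox5a was the 1 member called, raised, against 8.26% of all genes. It was 103.5, 92.3 and 97.2 FPKM in CK, 101.6, 95.7 and 108.3 in PB-020, 122.6, 107.0 and 115.5 in anti-PD-1 and 110.6, 114.7 and 116.2 in the combination. All anti-PD-1 and combination tumors lay above all CK tumors. The log2 change in anti-PD-1 was 0.26 ± 0.075 (adjusted p 0.0459), but it missed the threshold without anti-PD-1 tumor 1 (0.22, adjusted p 0.13) and passed it in 3 of the 8 other settings judged by adjusted p and 3 of the 12 fits that left out 1 tumor. The smallest p of complex I was that of Ndufa10, at -0.20 ± 0.064 (adjusted p 0.0698). Among all 81 members 35 were higher and 46 lower, with a median log2 change of -0.020.

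PB-020 alone gave 0 called members by edgeR, DESeq2 and limma, against 0.00% of all genes by edgeR. At an unadjusted p under 0.05 there were 5 members (6.17%), against 5.46% of all genes. The smallest p belonged to Uqcrb, at 295.4, 306.3 and 313.5 FPKM, with a log2 change of 0.29 ± 0.099 (adjusted p 0.874). Cox4i2 was 2.11, 1.22 and 1.45 FPKM in CK and 0.73, 1.14 and 0.62 in PB-020, a log2 change of -0.91 ± 0.39 (adjusted p 0.874). In direction, 65 of 81 members (80.2%) were higher than in CK, against 48.7% of all genes, with a median log2 change of 0.077. Cytosolic ribosomal protein genes were higher for 97.4% and mitochondrial ribosomal protein genes for 74.4%. All PB-020 tumors lay above all CK tumors for 18 members (22.2%), against 6.19% of all genes. Genes under 500 bases had a median of 0.123 and 77.3% of them were higher, and the 34 members of that length had 0.115. From 500 to 1000 bases the 28 members had 0.049 against 0.062 for all genes of that length. The 15 members of 1000 to 2000 bases had 0.097 against 0.023, and the 4 members of 2000 to 4000 bases had 0.069 against -0.0056. Members thus lay below genes of equal length in some classes and above in others, which was not tested. With the length trend removed the members' median was -0.0038.

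**Figure D5:**
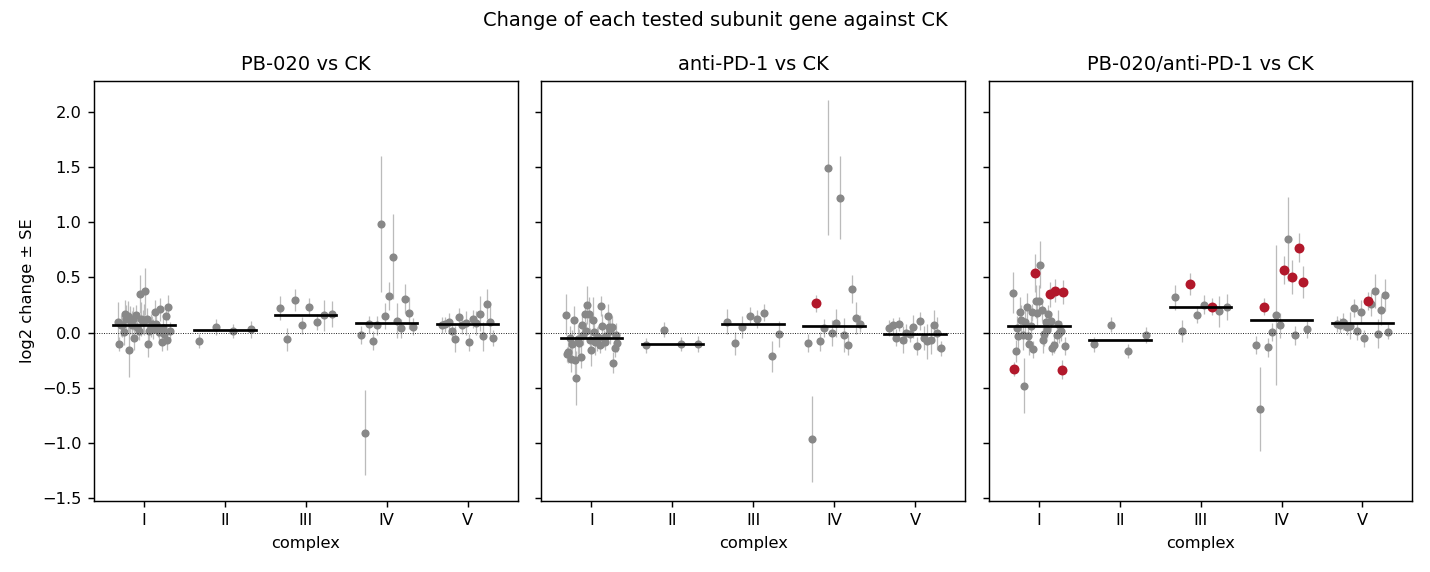
Log2 change against CK, ± SE, of each of the 81 tested subunit genes by complex, for PB-020, anti-PD-1 and their combination, with the median of each complex as a line and genes at an adjusted p under 0.05 in red. There are 0, 1 and 14 red points in the panels, and complex III has the highest median in the combination at 0.23.

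The combination was then compared with each agent alone. Against anti-PD-1, 0 members were called by edgeR, DESeq2 or limma, and 0.00% of all genes by edgeR. At an unadjusted p under 0.05, 21 members (25.9%) were higher and 2 (2.47%) lower, against 4.45% and 2.81% of all genes. Uqcrb had the smallest p, at 219.1, 256.1 and 284.1 FPKM in anti-PD-1 and with no overlap with the combination (log2 change 0.39 ± 0.099, adjusted p 0.663). In FPKM, 15 members (18.5%) had all combination tumors above all anti-PD-1 tumors, against 5.12% of all genes. Fewer members were higher without the tumors that stood apart, although a fit with fewer tumors also has less power for every gene. The 21 became 8 without anti-PD-1 tumor 1, 5 without combination tumor 2 and 11 with the length trend removed. The counts of all genes in these fits are not given here, so a drop particular to members is not shown. In this comparison 76.1% of all genes under 500 bases were higher.

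Against PB-020, 0 members were called by edgeR and limma and 2 by DESeq2, while 3.35% of all genes were called by edgeR. At an unadjusted p under 0.05 there were 7 members (8.64%), against 22.4% of all genes. Ndufa10 differed by -0.23 ± 0.064 (adjusted p 0.0648), Cox7b by 0.46 ± 0.13 (adjusted p 0.0686) and Ndufv1 by -0.27 ± 0.084 (adjusted p 0.0892). None of these passed the threshold, and in each of them the groups did not overlap.

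The interaction, which is the combination minus both single treatments plus CK on the log2 scale, gave 0 members by edgeR, DESeq2 and limma and 0.00% of all genes by edgeR. At an unadjusted p under 0.05 there was 1 member, Cox6a2, against 2.29% of all genes (log2 value -2.32 ± 0.87, adjusted p 1). Its high value in anti-PD-1 tumor 1 enters this term.

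Genes that serve the same pathway outside the symbol rule were read from lists, whose called shares stand beside 17.9% of all genes in the combination and 8.26% in anti-PD-1. Of 49 tested assembly factors, 4 were raised and 2 lowered in the combination against CK (12.2% called). Cox17, a copper chaperone for complex IV, rose by 0.54 ± 0.14 (adjusted p 0.0214), Coa7 by 0.50 ± 0.15 (adjusted p 0.0389) and Tmem70, which helps to assemble ATP synthase, by 0.37 ± 0.078 (adjusted p 0.00822). Of 13 tested subunits and carriers outside the rule, 3 were raised and 0 lowered (23.1%). Cycs, the somatic cytochrome c, rose by 0.59 ± 0.093 (adjusted p 0.00261), Cyc1, cytochrome c1 of complex III, by 0.24 ± 0.068 (adjusted p 0.0286) and Slc25a5, an ATP/ADP carrier, by 0.31 ± 0.087 (adjusted p 0.0279). The same 3 were raised in anti-PD-1 alone. Of 20 tested TCA cycle genes, 2 were raised and 1 lowered in the combination (15%).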

How the data were processed

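RNA of 12 tumors was sequenced by the authors as pairs of 150 bases, aligned with Bowtie2 (the labels also name HISAT) and quantified with RSEM on GRCm38.p6. Tool versions and annotation are not given in the sources used here. The deposited expected counts are RSEM estimates, 91.0% of them whole numbers. The FPKM and TPM values were normalized by the authors. FPKM gives the levels, and TPM was not used.

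Expected counts were rounded, filtered with filterByExpr (minimum count 10), scaled by TMM and fitted with edgeR 4.0.16 (robust quasi-likelihood, 4 group means, 12 tumors, R 4.3.3). Tests were two-sided, with Benjamini-Hochberg adjustment over the 13563 genes. The code was tested on simulated data. P-values set each difference against the spread between tumors within groups, estimated jointly over the 4 groups and moderated across genes. Members, gene lists and motifs were chosen with earlier results of these data known. Named were isoform genes, core subunits, the smallest p per complex and contrast, and up to 10 called members by p. Length is an apparent length calculated from expected counts and FPKM, and annotated transcript lengths were not used. Alternatives were DESeq2 1.42.0, limma 3.58.1 on log2(FPKM + 1), no filter, a filter of 50 counts in 3 tumors, library-size scaling, fitting only the groups compared, a replicate block, a fold over 1.5 with unadjusted p under 0.05, each tumor left out, and, added after seeing the data, removal of a length trend (loess span 0.5). Promoters and positions came from RefSeq on GRCm38.p6, by gene number for 85 of 85 members. The authors' group averages were not used.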

Additional observations from a re-analysis of the deposited data

How the results depend on the processing

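Members called in the combination against CK (14) became 9 with no filter on low counts, 7 with the replicate block and 3 with the fold rule, and ranged from 2 to 18 when 1 tumor was left out. For anti-PD-1 against CK (1) there were 3 called with DESeq2, the fold rule or the length trend removed, 0 with no filter, library-size scaling, only the groups compared or the replicate block, and 0 to 2 when 1 tumor was left out. For PB-020 against CK the fold rule gave 1 and for the interaction 1. By the fold rule, 671 of all 13563 genes were higher and 484 lower in the combination against CK. For anti-PD-1 against CK these numbers were 611 and 363, for PB-020 against CK 41 and 35 and for the interaction 50 and 48. For the other settings no counts of all genes are set beside the members here. Whether a change in members differs there from a change in all genes is therefore not shown. For the combination against PB-020 there were 2 with DESeq2, 2 with only the groups compared, 1 with the length trend removed and 0 to 3 when 1 tumor was left out. The members' median log2 change for PB-020 against CK ranged from 0.035 to 0.11 when 1 tumor was left out and was -0.0038 with the length trend removed, and that of the combination against anti-PD-1 was -0.015 with the length trend removed. The interaction has no fit of only the groups compared, since it uses all 4. The cause of these changes was not tested. Same-numbered tumors did not deviate together (correlations of member deviations from -0.598 to 0.502), so the replicate block pairs tumors by number alone. With 3 tumors per group, differences in low genes such as Cox4i2 were not detectable at this depth unless large.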

Other observations

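Glycolysis genes make pyruvate and lactate from glucose in the cytosol. Of 22 tested, 7 were raised and 0 lowered in anti-PD-1 against CK (31.8%, against 8.26% of all genes), and 7 were raised and 1 lowered in the combination against CK (36.4%, against 17.9%), by edgeR with adjusted p under 0.05. For the combination against anti-PD-1, 1 of the 22 (4.55%) was at an unadjusted p under 0.05, against 7.26% of all genes. Pgk1 rose by 0.72 ± 0.12 on the log2 scale in the combination (adjusted p 0.00355), Hk2, which phosphorylates glucose, by 0.61 ± 0.16 (adjusted p 0.0244) and Slc2a1, a glucose transporter, by 0.51 ± 0.13 (adjusted p 0.0184). Pfkm, the muscle form of phosphofructokinase, fell by 0.45 ± 0.11 (adjusted p 0.0158). Of 18 tested regulators of mitochondrial biogenesis, 0 were called in the combination against CK. At an unadjusted p under 0.05 there were 3 (16.7%), against 33.9% of all genes. T cell markers were raised for 13 of 14 tested genes (92.9%) in the combination against CK, and all 5 tested erythroid markers were lowered, beside the same 17.9% of all genes. In anti-PD-1 against CK, 11 of the 14 (78.6%) were raised and all 5 lowered, beside 8.26% of all genes. Between the combination and anti-PD-1, 0 of either list were called, and 0.00% of all genes.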
